A study of Mus musculus with 5 samples.

Results

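The cells described here are Foxp3-positive cells that entered a sort for SMARTA T cells after mice had been given diphtheria toxin to deplete regulatory T cells. They were set apart by whether RNA of the variable genes of the SMARTA receptor was found in them. Members had at least 1 UMI (a unique molecular identifier, which marks 1 captured RNA molecule) of Foxp3 and at least 3000 UMIs in all. There were 2278 such cells among 6529 cells of both toxin libraries and 20149 cells of the series. Of them, 492 cells held at least 1 UMI of the receptor's variable genes, Trbv13-1 of the beta chain and Trav14d-3-dv8 of the alpha chain, and are called receptor-positive. The other 1786 held a UMI of neither and are called receptor-negative. Both names state what was detected and not what the cell carries, so a receptor-positive cell is not shown to be a SMARTA cell. The values that chose the members are the UMIs of Foxp3, Trbv13-1 and Trav14d-3-dv8 and the total, so these genes are described without a test.

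The series holds 5 libraries of CD4+CD45.1+ cells from C57BL/6 mice, 1 library per group, made with a droplet kit that reads the 3′ ends of transcripts. The Treg-depleted library came from mice given toxin on days 0 and 2 after tumour injection, and the library with both treatments from mice that also received anti-CTLA4 antibody on days 0, 2 and 5. The other libraries are the antibody alone (aCTLA4), untreated tumour-bearing mice, and naive SMARTA cells from spleen. All but the naive library came from the inguinal lymph node on day 8. The labels name both MC38 and PyMG as the tumour, and the allele that made cells sensitive to the toxin, the number of mice per library and the animals' age are not given in the sources used here. An isotype antibody is mentioned for the series, with no library that carries it as a label.

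SMARTA cells are CD4 T cells whose transgenic receptor recognises a peptide of lymphocytic choriomeningitis virus, and CD45.1 is a congenic surface marker by which transferred cells are told from cells of the host. Foxp3 is the transcription factor that defines regulatory T cells, which restrain other T cells through, among others, the inhibitory receptor CTLA-4 and the high-affinity interleukin-2 receptor alpha chain Il2ra. A T cell rearranges its own receptor genes, and most T cells express a single beta chain, so that the variable genes found in a cell say which receptor it may carry.

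The variable genes that define the groups belong to families of similar sequence. The last 60 coding bases of each, from the GENCODE M21 transcripts on GRCm38 (plus strand), are shown. A UMI of such a gene can be told from its relatives only where the bases differ. How UMIs came to be assigned to variable genes with a kit that reads 3′ ends is not clear from the labels. Capitals mark bases that differ from the receptor gene of the same family. Trbv13-1 lies at chr6:41116409-41116468 and Trbv13-3, its relative among the genes of the tables used here, at chr6:41130526-41130585.
Trbv13-1: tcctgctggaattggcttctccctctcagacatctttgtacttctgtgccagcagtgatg
Trbv13-3: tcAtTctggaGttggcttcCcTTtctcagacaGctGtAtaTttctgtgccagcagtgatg
Trav14d-3-dv8 lies at chr14:53078986-53079045, Trav14-2 at chr14:53641166-53641225 and Trav14-3 at chr14:53763635-53763694.
Trav14d-3-dv8: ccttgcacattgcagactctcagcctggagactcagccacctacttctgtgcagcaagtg
Trav14-2: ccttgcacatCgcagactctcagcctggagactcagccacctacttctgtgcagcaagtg
Trav14-3: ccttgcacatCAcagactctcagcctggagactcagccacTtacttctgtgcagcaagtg
Trbv13-3 differed from Trbv13-1 at 10 of these bases and was 84.8% identical over the last 270. Trav14-2 differed from Trav14d-3-dv8 at 1 base and Trav14-3 at 3, with 94.4% and 97.0% identity over 270 bases, so a UMI of the alpha gene is less certain than one of the beta gene. UMIs of the other Trav14 genes were rare, in 5 of 249 and 4 of 243 receptor-positive cells and in 3 of 883 and 10 of 903 receptor-negative cells of the Treg-depleted library and of the library with both treatments.

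Receptor RNA was found in about the same small share of Foxp3-positive cells in both toxin libraries. In the Treg-depleted library 249 of 1132 Foxp3-positive cells were receptor-positive, 22.0% (95% exact binomial interval 19.6 to 24.5), and in the library with both treatments 243 of 1146, 21.2% (18.9 to 23.7). Intervals in the text cover counting error only. Among Foxp3-zero cells, also of at least 3000 UMIs, the share was 63.3% (59.3 to 67.1) and 57.0% (52.7 to 61.3). These shares are from full counts and are not matched on depth. Foxp3-zero receptor-positive cells had medians of 5234.5 and 3775.5 UMIs, against 8377 and 6723 in receptor-positive Foxp3 cells. In the libraries without toxin, Foxp3-positive cells were few: 31 of 41 were receptor-positive with antibody alone (75.6%, 59.7 to 87.6), 7 of 9 in untreated mice (77.8%, 40.0 to 97.2) and 1 of 6 among naive cells. Their Foxp3-zero cells held a receptor UMI in 77.6% with antibody and 73.7% when untreated. Receptor RNA was thus not found in every sorted cell of any library. How many cells of either group carry the SMARTA receptor was not tested.

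**Figure D1:**
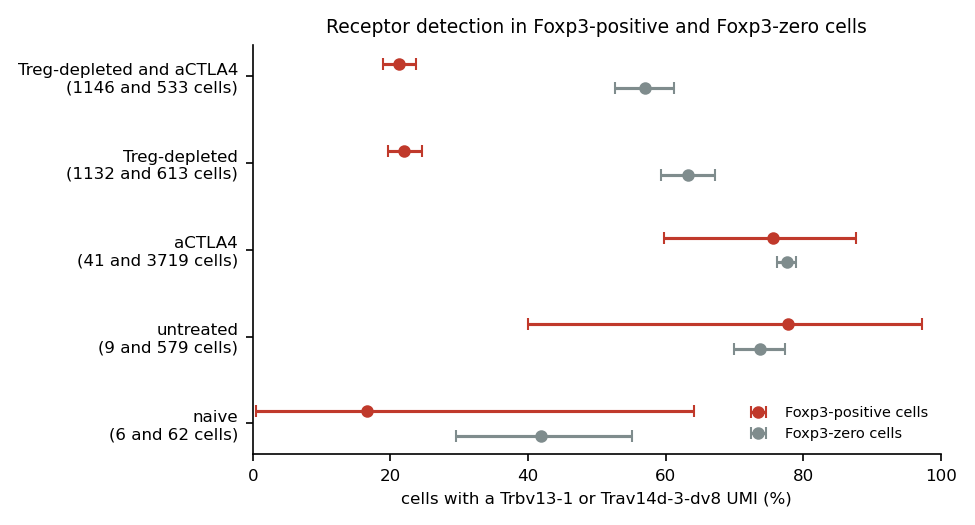
Percentage of cells in which either receptor gene had a UMI (x axis) in each of the 5 libraries (rows), for Foxp3-positive cells (red) and Foxp3-zero cells (grey) of at least 3000 UMIs, with exact 95% binomial intervals and the numbers of cells in brackets. In both toxin libraries the red points lie at 22.0% and 21.2%, far left of the grey points, while with antibody alone or no treatment the intervals of both kinds of cell overlap.

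Read from the other side, Foxp3 was found in 39.1% (35.3 to 43.0) and 44.4% (40.2 to 48.7) of receptor-positive cells in the Treg-depleted library and the library with both treatments. The same share was 1.06% (0.723 to 1.51) with antibody alone and 1.61% (0.651 to 3.29) in untreated mice. With 1 library per group no test between libraries was made. Just below the depth limit, at 2500 to 2999 UMIs, 11 of 60 and 20 of 135 Foxp3-positive cells held a receptor UMI, and just above it, at 3000 to 3499 UMIs, 5 of 62 and 17 of 112.

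In the Treg-depleted library 64 Foxp3-positive cells held UMIs of both receptor genes, while 153 held Trbv13-1 alone and 32 Trav14d-3-dv8 alone. In the library with both treatments 61 held both, 159 Trbv13-1 alone and 23 Trav14d-3-dv8 alone. Trav14d-3-dv8 was found in 29.5% (23.5 to 36.0) and 27.7% (21.9 to 34.1) of Foxp3-positive cells with Trbv13-1, against 3.497% (2.404 to 4.90) and 2.48% (1.58 to 3.70) of those without it. Among Foxp3-zero cells with Trbv13-1 the share was 29.3% (24.5 to 34.5) and 28.5% (23.1 to 34.3), so the intervals of Foxp3-positive and Foxp3-zero cells overlapped in both libraries. Among Foxp3-zero cells without Trbv13-1 it was 18.2% and 13.9%. These are rule genes in cells of unequal depth, and the counts describe the members. Where cells were thinned to 3000 UMIs, 12 and 23 Foxp3-positive cells still showed both.

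Receptor-positive cells were somewhat deeper than receptor-negative cells. Receptor-positive cells had a median of 8377 UMIs and receptor-negative cells 7130 in the Treg-depleted library, and 6723 against 6232 in the library with both treatments. The groups were set at full depth, where a deeper cell is more likely to show a receptor UMI, and thinning does not correct that. With membership taken after thinning, 118 and 118 Foxp3 cells were receptor-positive, in place of 249 and 243. For the sums, every cell of the groups set at full depth was drawn at random down to 3000 UMIs. After this thinning Foxp3 stood at 631 and 599 CPM (UMIs scaled to the same total in every sum) in receptor-positive cells, against 686 and 604 CPM in receptor-negative cells, where each pair of values gives the Treg-depleted library and then the library with both treatments. At full depth at least 4 Foxp3 UMIs were seen in 69.5% and 51.0% of receptor-positive cells, against 62.7% and 49.6% of receptor-negative ones. At least 2 receptor UMIs were seen in 63.1% and 52.3% of receptor-positive cells. Barcodes that also occur in another library were borne by 2 and 0 receptor-positive cells and by 5 and 3 receptor-negative cells.

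Other beta chain genes were found in few cells, most of them receptor-negative. Of the beta variable genes in the tables, Trbv12-1, Trbv13-3 and Trbv2 were not used by the rule. At full depth a UMI of any of them was found in 1 of 249 and 1 of 243 receptor-positive cells (0.402%, interval 0.0102 to 2.22, and 0.412%, 0.0104 to 2.27). In receptor-negative cells it was found in 57 of 883 and 26 of 903 (6.46%, 4.93 to 8.28, and 2.88%, 1.89 to 4.19). After thinning it was found in 1 and 0 receptor-positive cells, against 3.17% and 1.33% of receptor-negative cells. Foxp3-zero receptor-positive cells showed it at full depth in 0 of 388 (interval up to 0.946%) and 1 of 304. In cells marked by genes of other cell types, which give the background, it was seen in 1 of 19 (median depth 10530 UMIs) and 0 of 12 (9008 UMIs). Trbv13-3, the relative of the receptor's beta gene, had a UMI in 0 receptor-positive and 23 receptor-negative cells of the Treg-depleted library, and in 0 and 1 cells of the library with both treatments. Alpha variable genes gave no such pattern. Any of 28 other Trav genes was found in 20.5% (15.6 to 26.0) of receptor-positive and 9.97% (8.07 to 12.1) of receptor-negative cells of the Treg-depleted library, but in 10.3% (6.77 to 14.8) and 17.7% (15.3 to 20.4) of those of the library with both treatments. After thinning these shares were 10.4% against 4.98%, and 6.17% against 9.41%. Since most T cells express a single beta chain, a choice of cells by Trbv13-1 bears on the other beta genes too, and the shares are given as a description.

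Few genes outside the receptor were called between receptor-positive and receptor-negative Foxp3 cells in the main fit. UMIs of the thinned cells were summed per library for 3 kinds of cell: both Foxp3-positive groups and the Foxp3-zero receptor-positive cells (388 and 304 cells). The 6 sums were fitted with edgeR's quasi-likelihood test, with library as a block. Benjamini-Hochberg adjustment covered 6020 genes, and a gene was called at an adjusted p under 0.05. Genes were kept by their level in the Foxp3-positive groups, so genes found mainly in the Foxp3-zero cells were not tested in any comparison. The residual of that fit is how far the differences among all 3 kinds of cell vary between 2 libraries of different treatment, and not between mice. By this test 7 genes were higher in receptor-positive than in receptor-negative cells, 0.116% of those tested, and 1 was lower, 0.0166%. With the Foxp3-zero sums left out of the fit, 75 were higher and 55 lower, so the number of calls depends on that choice. Without adjustment 229 genes, 3.80%, had p under 0.05, and DESeq2 called 9 higher, the same 7 with Bcl2 and Actn1, and 1 lower. Ratios of at least 1.5-fold in both libraries were seen for 35 genes upward (0.581%) and 21 downward (0.349%). The median log2 ratio of all genes was 0.01.

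**Figure D2:**
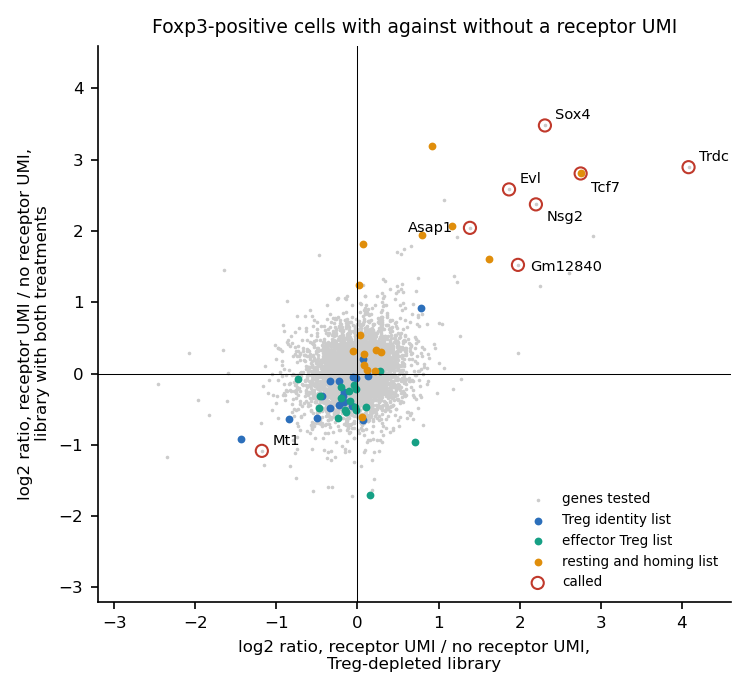
Log2 ratio of summed CPM in receptor-positive over receptor-negative Foxp3 cells, in the Treg-depleted library (x axis) and the library with both treatments (y axis), for the 6020 genes tested (grey), 3 gene lists (colours) and the 8 called genes (red rings). Most genes lie around 0, the called genes lie in the upper right except Mt1 at the lower left, and the regulatory T cell lists lie mostly a little below 0 on both axes.

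Tcf7 (chromosome 11, 52252371 to 52283014 on GRCm38), the transcription factor TCF-1 of naive and memory-like T cells, had the smallest adjusted p. It stood at 102 and 108 CPM in receptor-positive cells, against 15.1 and 15.5 CPM in receptor-negative cells. Receptor-positive cells were thus higher in both libraries, by 6.74-fold (95% interval 4.54 to 10.1) and 6.99-fold (4.75 to 10.4). The log2 fold change was 2.77, with an adjusted p of 0.00179 in edgeR's quasi-likelihood test with Benjamini-Hochberg adjustment, and DESeq2 gave 2.76 with a standard error of 0.29. Both Foxp3-positive groups were far below the Foxp3-zero receptor-positive cells, which held 1089 and 797 CPM. A Tcf7 UMI was found in 10.8% and 17.7% of receptor-positive cells, against 2.49% and 2.55% of receptor-negative and 81.4% and 82.6% of Foxp3-zero receptor-positive cells. In cells of other types 1 of 19 and 3 of 12 held one.

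Sox4, a transcription factor of developing and activated lymphocytes, was at 18.7 and 103 CPM in receptor-positive cells, against 3.78 and 9.23 CPM in receptor-negative cells. Its ratio was 4.96 (2.05 to 12.5) and 11.1 (7.01 to 18.3), so receptor-positive cells were higher in both libraries but their own level differed between them. The log2 fold change was 3.16 and the edgeR adjusted p (Benjamini-Hochberg) 0.00431. In the Treg-depleted library alone it rested on 14 and 10 UMIs. Foxp3-zero receptor-positive cells held 206 and 1209 CPM.

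Nsg2, a membrane protein best known from neurons, was at 46.9 and 53.5 CPM in receptor-positive cells against 10.2 and 10.3 CPM in receptor-negative cells. Evl, an actin regulator of the Ena/VASP family, was at 45.5 and 79.6 CPM against 12.5 and 13.3 CPM, and Asap1, an ARF GTPase-activating protein, at 60.2 and 70.0 CPM against 23.0 and 17.0 CPM. All 3 were thus higher in receptor-positive than in receptor-negative cells of both libraries, and far below the Foxp3-zero receptor-positive cells, where they lay between 307 and 497 CPM. Their log2 fold changes were 2.28, 2.25 and 1.70, with edgeR adjusted p (Benjamini-Hochberg) of 0.00666, 0.00501 and 0.0251. Gm12840, a long noncoding RNA on chromosome 4, was at 186 and 281 CPM in receptor-positive cells against 47.2 and 97.8 CPM in receptor-negative cells (log2 fold change 1.72, edgeR adjusted p 0.00431, Benjamini-Hochberg).

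Trdc, the constant gene of the receptor delta chain, which lies inside the alpha locus on chromosome 14, was at 57.6 and 79.6 CPM in receptor-positive cells and 3.398 and 10.7 CPM in receptor-negative cells. The receptor's alpha variable gene can, as the dv8 in its name records, also join the delta chain. Trdc was 16.9-fold (8.15 to 39.5) and 7.43-fold (4.68 to 12.04) higher in receptor-positive cells, with a log2 fold change of 3.26 and an edgeR adjusted p (Benjamini-Hochberg) of 0.0314. With the cells that expressed G2M genes left out, its log2 fold change was 0.32 and the adjusted p 0.993, on 58 and 37 receptor-positive cells. With Trbv13-1 alone as the receptor gene it was 3.16. The call was also lost without thinning, from 2 Foxp3 UMIs, with depth matched and without the library block, at edgeR adjusted p (Benjamini-Hochberg) of 0.0677, 0.128, 0.0683 and 0.0737. Foxp3-zero receptor-positive cells held more Trdc, 306 and 195 CPM, and at full depth a UMI was found in 29.4% and 20.4% of them. At full depth Trdc was found in 10.04% and 13.99% of receptor-positive and 0.793% and 0.775% of receptor-negative Foxp3 cells. Foxp3-zero cells without a receptor UMI showed it too, in 22.2% and 13.5%, so it was not limited to cells with a receptor UMI. In cells of other types 1 of 19 and 1 of 12 held it. The gamma chain constant genes Tcrg-C1, Tcrg-C2 and Tcrg-C4 were at 12.05, 16.1 and 16.1 CPM in receptor-positive cells of the Treg-depleted library and at 1.37, 1.37 and 0 CPM in those of the library with both treatments, against at most 1.48 CPM in receptor-negative cells of either. In the Treg-depleted library 4 receptor-positive cells and 0 receptor-negative cells held at least 2 genes of the gamma delta T cell list. Their part in the Trdc result was not tested.

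Mt1, a metal-binding metallothionein, was the only gene called lower. It was at 150 and 199 CPM in receptor-positive cells, against 339 and 422 CPM in receptor-negative cells, with ratios of 0.442 (0.360 to 0.538) and 0.471 (0.394 to 0.561). The log2 fold change was -1.13 and the edgeR adjusted p (Benjamini-Hochberg) 0.0207. The call was lost without thinning, from 4 Foxp3 UMIs, at a mean of 100 CPM and without the library block, at edgeR adjusted p (Benjamini-Hochberg) of 0.335, 0.242, 0.0782 and 0.548. Foxp3-zero receptor-positive cells held 25.8 and 43.9 CPM, so the receptor-positive Foxp3 cells lay between the other groups. An Mt1 UMI was found in 18.9% and 20.6% of receptor-positive cells, 35.6% and 41.2% of receptor-negative cells, and 3 of 19 and 9 of 12 cells of other types. The related Mt2, looked up after these values were seen, was at 12.05 and 45.3 CPM against 42.7 and 67.6 CPM and was not called (log2 fold change -1.02, edgeR adjusted p 0.958, Benjamini-Hochberg).

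**Figure D3:**
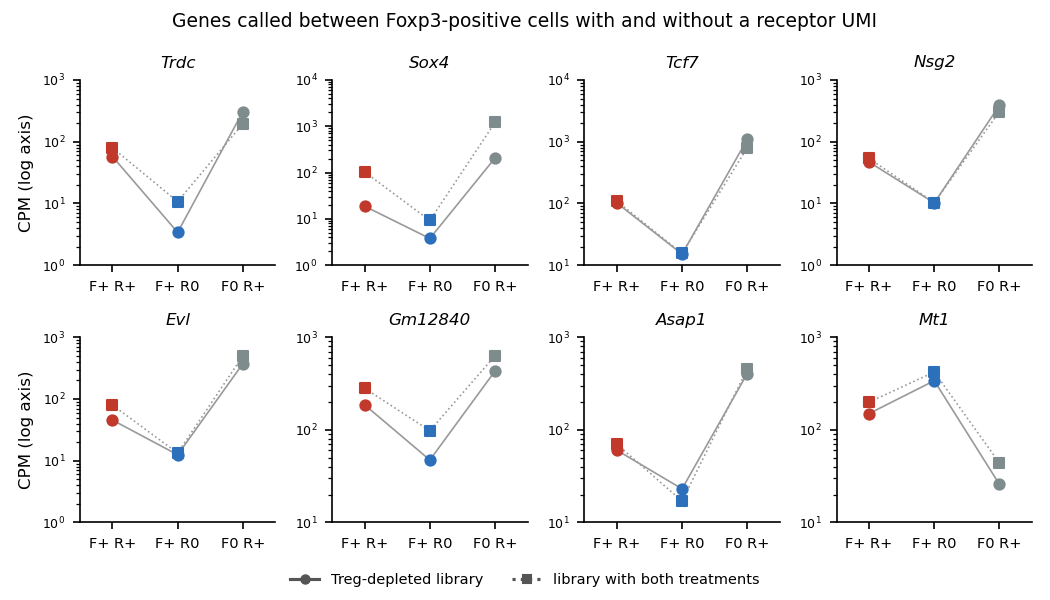
Level in CPM (log axes) of the 8 called genes in receptor-positive Foxp3 cells (F+ R+, red), receptor-negative Foxp3 cells (F+ R0, blue) and Foxp3-zero receptor-positive cells (F0 R+, grey), with circles and solid lines for the Treg-depleted library and squares and dotted lines for the library with both treatments. In every panel and both libraries the red point lies between the blue and the grey one.

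Regulatory T cell genes gave no call between the Foxp3-positive groups, and most were higher in receptor-positive Foxp3 cells than in Foxp3-zero receptor-positive cells. Of 19 tested genes of the Treg identity list none was called in either direction between receptor-positive and receptor-negative cells by edgeR or DESeq2. By edgeR 0.116% of all genes tested were called higher and 0.0166% lower. An unadjusted edgeR p under 0.05 was seen for 5 of the 19, beside 3.80% of all genes tested. Against Foxp3-zero receptor-positive cells 15 were higher and 1 lower, beside 10.2% of all tested genes higher and 11.7% lower in that comparison. The list's median log2 ratio of receptor-positive to receptor-negative cells was -0.26, beside 0.01 for all genes, and 15 of 19 had a ratio below 1 in both libraries. Of all 6020 genes, 1526 had a ratio below 1 in both libraries and 1712 above 1 in both. Il2ra was at 744 and 676 CPM in receptor-positive cells, 852 and 892 CPM in receptor-negative cells and 48.1 and 55.9 CPM in Foxp3-zero receptor-positive cells. The receptor-positive cells exceeded the last group 13.7-fold, with an edgeR adjusted p (Benjamini-Hochberg) of 4.74e-06. Ctla4, which encodes the antibody's target, was at 2146 CPM in receptor-positive cells against 2055 CPM in receptor-negative cells of the Treg-depleted library, and at 1667 against 2627 CPM in the library with both treatments. The ratio was 1.04 (0.987 to 1.10) without antibody and 0.634 (0.596 to 0.674) with it, and whether it differed between the libraries could not be tested with 1 library each.

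Tnfrsf18, the costimulatory receptor GITR, was at 1250.3 and 982 CPM in receptor-positive cells, 1314 and 1344 CPM in receptor-negative cells and 259 and 279 CPM in Foxp3-zero receptor-positive cells. Itgae, the integrin chain CD103, was at 369 and 230.5 CPM against 416 and 288 CPM, with 18.0 and 6.58 CPM in the Foxp3-zero cells, and Socs2, a feedback inhibitor of cytokine signals, at 277 and 202 CPM against 351 and 283 CPM, with 10.3 and 7.68 CPM. In these genes the Foxp3-positive groups lay close together and both far above the Foxp3-zero cells. Ikzf2, the transcription factor Helios, was at 1120.5 and 1335 CPM in receptor-positive and 1414 and 1436 CPM in receptor-negative cells, but here the Foxp3-zero receptor-positive cells were not far below, at 480 and 1292 CPM, and the difference from them was not called (edgeR adjusted p 0.184, Benjamini-Hochberg). Fgl2, a secreted suppressive protein, was at 24.1 and 31.6 CPM against 64.9 and 59.4 CPM, and Swap70, a signalling adaptor, at 65.6 and 76.8 CPM against 38.1 and 40.6 CPM. Neither was called between the Foxp3-positive groups, with edgeR adjusted p (Benjamini-Hochberg) of 0.578 and 0.958.

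Genes of effector regulatory T cells gave the same picture. Of 18 tested members none was called between receptor-positive and receptor-negative cells by edgeR or DESeq2. Only 1 had an unadjusted edgeR p under 0.05 (all genes: 3.80%). A ratio below 1 in both libraries was seen for 14 (1526 of all 6020 genes), and the median log2 ratio was -0.26. Against Foxp3-zero receptor-positive cells 14 were higher and 0 lower (all genes: 10.2% and 11.7%). Gzmb, the cytotoxic protease granzyme B, was at 4515 and 1993 CPM in receptor-positive cells, against 5028 and 2843 CPM in receptor-negative cells and 199 and 87.7 CPM in Foxp3-zero receptor-positive cells. Prdm1, the transcription factor Blimp-1, was at 96.4 and 83.7 CPM, against 89.5 and 116 CPM and 6.01 and 4.39 CPM. Icos, a costimulatory receptor, was at 1451 and 1108 CPM, against 1712 and 1708 CPM and 633 and 277 CPM. Klrg1, an inhibitory receptor of terminally differentiated lymphocytes, was at 384 CPM in receptor-positive and 345 CPM in receptor-negative cells of the Treg-depleted library, but at 61.7 against 201 CPM in the library with both treatments. A Klrg1 UMI was found in 35.7% and 12.3% of receptor-positive cells, against 36.5% and 25.5% of receptor-negative cells. Its adjusted p between them was 1.00 in edgeR's test (Benjamini-Hochberg).

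**Figure D4:**
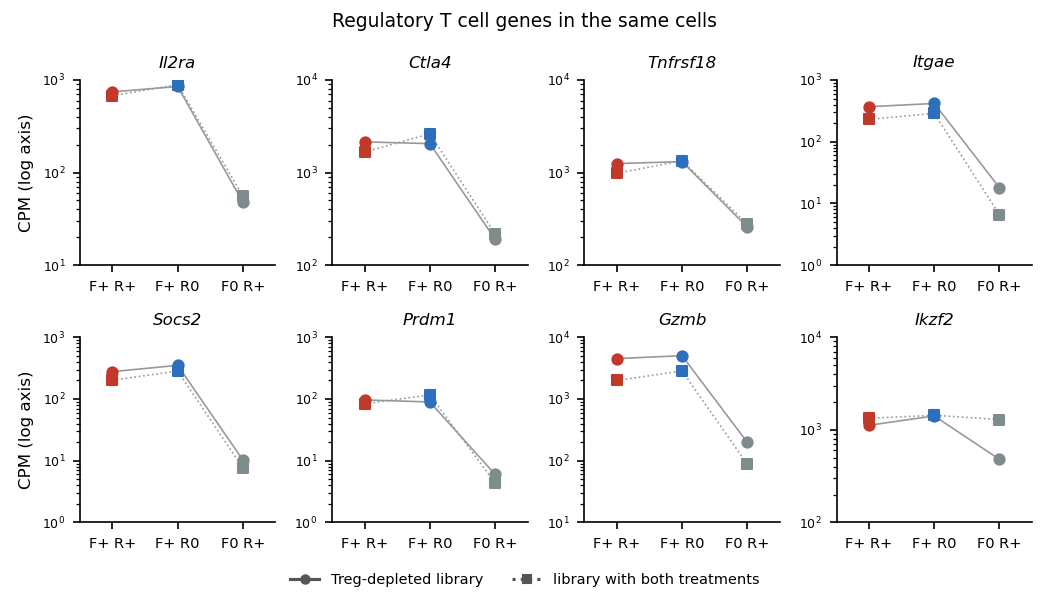
Level in CPM (log axes) of 8 regulatory T cell genes in receptor-positive Foxp3 cells (F+ R+, red), receptor-negative Foxp3 cells (F+ R0, blue) and Foxp3-zero receptor-positive cells (F0 R+, grey), with circles and solid lines for the Treg-depleted library and squares and dotted lines for the library with both treatments. The red and blue points lie close together and the grey points below them, except for Ikzf2, where the grey square of the library with both treatments lies beside the others.

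Genes of resting and homing T cells leaned the other way. Of 16 tested members 1, Tcf7, was called higher in receptor-positive than in receptor-negative cells and 0 lower (all genes: 0.116% and 0.0166%). Without adjustment 5 had an edgeR p under 0.05 (all genes: 3.80%). A ratio above 1 in both libraries was seen for 14 (1712 of all 6020 genes), and the median log2 ratio was 0.29. Bcl2, which protects from apoptosis, was at 52.2 and 37.0 CPM in receptor-positive cells against 17.0 and 12.2 CPM in receptor-negative cells, at an edgeR adjusted p of 0.0507 (Benjamini-Hochberg) and 0.0297 by DESeq2. Id3, an inhibitor of E proteins, was at 41.5 and 118 CPM against 21.9 and 12.9 CPM, and Actn1, an actin crosslinker, at 32.1 and 46.6 CPM against 14.3 and 11.1 CPM, with edgeR adjusted p (Benjamini-Hochberg) of 0.222 and 0.174. Ccr7, a chemokine receptor of lymph node homing, was at 104 and 97.4 CPM against 100.4 and 149 CPM. Against Foxp3-zero receptor-positive cells 2 of the 16 were higher and 7 lower (all genes: 10.2% and 11.7%).

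Follicular helper genes gave values in the same direction. None of 8 tested members was called between the Foxp3-positive groups by edgeR or DESeq2. Before adjustment 3 of the 8 had an edgeR p under 0.05, beside 3.80% of all genes tested. A ratio above 1 in both libraries was seen for 6, as for 1712 of all 6020 genes. Cd200, a surface glycoprotein, was at 57.6 and 112 CPM in receptor-positive cells against 34.4 and 44.7 CPM in receptor-negative cells. Sh2d1a, the signalling adaptor SAP, was at 394 and 339 CPM against 263 and 202 CPM. Their edgeR adjusted p (Benjamini-Hochberg) were 0.185 and 0.583. The defining genes of the subset lay under the expression limit and were not tested. The homing receptor Cxcr5 was at 21.4 and 32.9 CPM in receptor-positive cells against 4.91 and 12.9 CPM in receptor-negative cells. Its ratios were 4.36 (1.97 to 9.86) and 2.55 (1.45 to 4.41), on 16 and 24 against 13 and 35 UMIs. The inhibitory receptor Pdcd1 was at 12.05 and 26.1 CPM against 9.82 and 17.0 CPM, with ratios of 1.23 (0.506 to 2.70) and 1.53 (0.849 to 2.67) whose intervals include 1. The lineage factor Bcl6 rested on 4 UMIs in receptor-positive and 3 UMIs in receptor-negative cells of each library, too few to compare.

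Cell cycle genes were found in similar shares of both Foxp3-positive groups. At least 2 of 32 G2M genes were found in 76.7% (71.0 to 81.8) and 84.8% (79.6 to 89.0) of receptor-positive cells, against 75.5% (72.6 to 78.3) and 85.3% (82.8 to 87.5) of receptor-negative cells, after thinning. Before thinning the shares were 86.3% and 90.9% against 84.7% and 90.9%. Foxp3-zero receptor-positive cells were at 54.9% and 53.3%, and cells of other types at 9 of 19 and 4 of 12. How much of these shares is background was not tested. None of the 32 G2M genes and none of 26 S phase genes was called between the Foxp3-positive groups by edgeR or DESeq2. With no adjustment 0 of them had an edgeR p under 0.05 (all genes: 3.80%). Against Foxp3-zero receptor-positive cells 30 and 22 were higher in receptor-positive Foxp3 cells and 0 were lower (all genes: 10.2% and 11.7%). Mki67, a proliferation marker, was at 514 and 737 CPM in receptor-positive cells against 510.0 and 645 CPM in receptor-negative cells and 272 and 160 CPM in Foxp3-zero receptor-positive cells.

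The other lists gave no call between receptor-positive and receptor-negative Foxp3 cells by edgeR or DESeq2. At most 3 genes in each had an unadjusted edgeR p under 0.05, beside 3.80% of all genes tested. Of 17 tested interferon gamma response genes 13 had a ratio below 1 in both libraries (1526 of all 6020 genes; median log2 ratio -0.23), and 14 were higher and 0 lower than in Foxp3-zero receptor-positive cells (all genes: 10.2% and 11.7%). Gbp5, an interferon-induced GTPase, was at 137 and 126 CPM in receptor-positive cells, against 158 and 175 CPM in receptor-negative cells and 30.9 and 21.9 CPM in Foxp3-zero receptor-positive cells. The median log2 ratios were 0.24 for genes of conventional T cells that are repressed in regulatory T cells (9 tested) and 0.09 for Th1 and cytotoxic genes (13). They were -0.19 for inhibitory receptors (3), 0.02 for the T cell receptor response (10) and -0.03 for activation and migration (19). They were -0.09 for type I interferon genes (16), 0.03 for survival and death (12), 0.08 for interleukin-2 and gamma chain signalling (11), -0.04 for glycolysis (15), -0.18 for cholesterol synthesis (15) and 0.04 for genes induced by tissue dissociation (9).

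Named genes that were not called include several with ratios of at least 2-fold in both libraries. Ifitm1, an interferon-induced membrane protein, was at 259.7 and 106 CPM in receptor-positive cells against 34.7 and 27.7 CPM in receptor-negative cells, with 662 and 16.4 CPM in Foxp3-zero receptor-positive cells. Ccl5, a chemokine of effector T cells, was at 21.4 and 53.5 CPM against 109 and 120 CPM. Lgals7, Igf1r, Pdlim1, Pafah1b3 and Parp3 were between 2.29-fold and 6.08-fold higher. All of these had an edgeR adjusted p (Benjamini-Hochberg) of 0.248 or more. In 26 genes, 0.432% of those tested, the counting intervals lay on opposite sides of 1 in the 2 libraries. The protease gene Gzma, chosen after its values were seen, was at 92.4 against 289.5 CPM in the Treg-depleted library and at 189 against 69.0 CPM in the library with both treatments.

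Receptor-positive Foxp3 cells differed from Foxp3-zero receptor-positive cells in many more genes. Here 616 genes were higher (10.2% of those tested) and 702 lower (11.7%) by the same edgeR test. Genes found mainly in Foxp3-zero cells were left out, such as Pdcd1, at 123 and 178 CPM there. Without the CPM minimum 743 were higher and 1139 lower. With TMM scaling the split was 733 higher and 558 lower, and with DESeq2 461 and 267. Socs2 was 26.3-fold, Itgae 23.8-fold, Gzmb 22.5-fold and Prdm1 16.7-fold higher in receptor-positive Foxp3 cells, while Sox4 was 11.3-fold and Tcf7 8.90-fold lower than in the Foxp3-zero cells. Cd4 was at 232 and 195 CPM against 626 and 397 CPM, with an edgeR adjusted p of 0.00128 (Benjamini-Hochberg).

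To place the receptor-positive Foxp3 cells between the other groups, genes were picked by the difference between Foxp3-zero receptor-positive and receptor-negative Foxp3 cells alone, at 3 or more on the log2 scale, after their values had been seen. Over 32 genes higher in the Foxp3-zero cells, the receptor-positive Foxp3 cells lay a median of 8.03% (quartiles 5.03 to 10.6) and 12.02% (7.45 to 15.2) of the way from the receptor-negative to the Foxp3-zero level. Their summed level was 867 and 1343 CPM, against 297 and 305 CPM in receptor-negative and 7382 and 9052 CPM in Foxp3-zero receptor-positive cells. Over 26 genes higher in receptor-negative Foxp3 cells the median was 14.3% and 30.7% of the way.

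The shift was uneven among the receptor-positive cells. At least 3 of the 32 genes were found in 46 of 249 (18.5%, 13.9 to 23.9) and 78 of 243 (32.1%, 26.3 to 38.4) receptor-positive cells. The shares were 5.21% (3.84 to 6.89) and 5.43% (4.04 to 7.11) in receptor-negative cells and 97.2% and 97.0% in Foxp3-zero receptor-positive cells, whose levels chose the genes. Foxp3-zero cells without a receptor UMI, not used in that choice, were at 76.9% and 64.2%. The 46 and 78 receptor-positive Foxp3 cells with at least 3 of the genes had a median of 2.5 and 3 Foxp3 UMIs, against 5 and 4 in the others. Their median depth was 8382.5 and 5159 UMIs, against 8373 and 7303. Of them 36 and 62 also held at least 3 of the 26 genes of the opposite panel.

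In receptor-positive cells the level of these genes was lower where more Foxp3 UMIs were found. The genes were picked as higher in Foxp3-zero than in receptor-negative Foxp3 cells, and Foxp3 is a rule gene. A fall with more Foxp3 UMIs is thus not independent of that choice, and the values are given as a description. In receptor-positive cells with 1 Foxp3 UMI (29 and 50 cells) the 32 genes summed to 3207 and 2920 CPM, with 2 to 3 Foxp3 UMIs to 1099 and 1159 CPM, and with at least 4 (173 and 124 cells) to 412 and 809 CPM. Receptor-negative cells were at 495 and 322 CPM with 1 Foxp3 UMI, 308 and 381 CPM with 2 to 3, and 261 and 248 CPM with at least 4, so that in the library with both treatments their level was not lower at 2 to 3 UMIs than at 1. Depth moved with these classes, with medians of 5749 and 4524.5 UMIs at 1 Foxp3 UMI and 9152 and 9036 UMIs at 4 or more in receptor-positive cells, and its part was not tested beyond the thinning. Tcf7 was at 517 and 273 CPM in receptor-positive cells with 1 Foxp3 UMI and at 30.8 and 53.8 CPM in those with at least 4, against 11.4 and 4.46 CPM in receptor-negative cells with at least 4. A comparison limited to cells with at least 4 Foxp3 UMIs, added after these values were seen, called 2 genes higher, Gm12840 and Trdc, and 0 lower in receptor-positive cells, and 168 genes had an unadjusted p under 0.05. Tcf7 then had a log2 fold change of 2.30 and an adjusted p of 0.381 in edgeR's test (Benjamini-Hochberg). In those cells Trdc was at 57.8 and 59.1 CPM in receptor-positive cells against 3.01 and 2.98 CPM in receptor-negative cells, on 30 and 22 against 5 and 4 UMIs. Droplets that hold more than 1 cell were not called, and their part in these results was not tested.

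**Figure D5:**
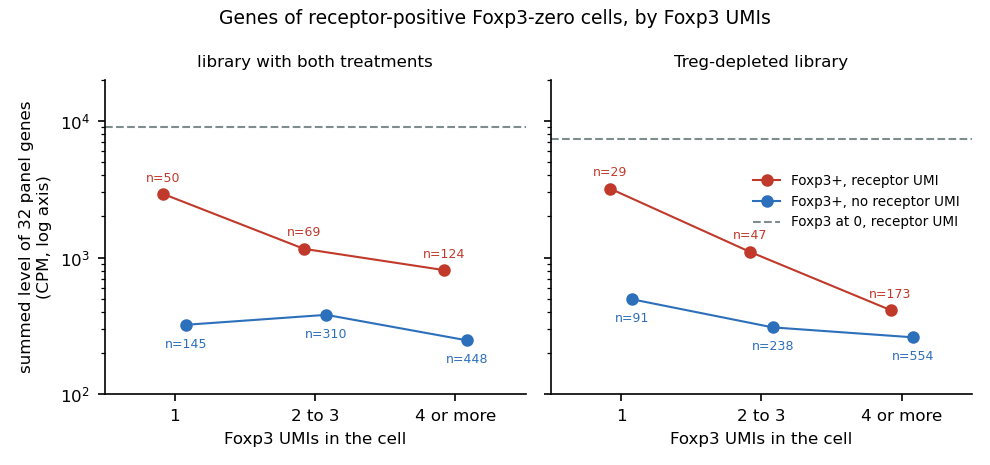
Summed level in CPM (log axis) of the 32 genes higher in Foxp3-zero receptor-positive cells (dashed line, their level there) by the number of Foxp3 UMIs in the cell (x axis), for receptor-positive (red) and receptor-negative (blue) Foxp3 cells, with numbers of cells. The red points lie at 3207 and 2920 CPM at 1 Foxp3 UMI and at 412 and 809 CPM at 4 or more, above the blue points in every class. The level in the blue cells and that of the dashed line were used in choosing the genes, so the fall is not independent of that choice.

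Markers of other cell types were compared between the groups. Of the CD4 T cell list, Cd4, Cd5 and Cd28 were found in each sum. The B cell list summed to 2784 and 2765 CPM in receptor-positive cells, against 3364 and 2957 CPM in receptor-negative cells and 544 and 1613 CPM in Foxp3-zero receptor-positive cells, and at least 2 of its genes were found in 61.4% and 63.4%, against 74.5% and 66.2% and 12.9% and 14.5% of cells. Most of it was Ighm, at 1914 and 2054 CPM in receptor-positive cells against 2297 and 2089 CPM in receptor-negative cells, with Igkc at 519 and 454 CPM against 509 and 467 CPM and Cd74 at 286 and 198 CPM against 410 and 318 CPM. Of the defining genes, Cd79b was at 41.5 and 26.1 CPM in receptor-positive cells, against 69.5 and 48.4 CPM in receptor-negative cells and 1.72 and 20.8 CPM in Foxp3-zero receptor-positive cells. Cd79a and Ms4a1 were at 1.34 and 2.74 CPM and at 0 and 1.37 CPM in receptor-positive cells. The part of these genes' RNA in the results was not tested. Myeloid genes summed to 652 and 503 CPM against 661 and 588 CPM, nearly all of it Cst3 and Ctss, with Lyz2 at 1.34 and 0 CPM in receptor-positive cells. Of the 6 NK cell genes in the tables all were at 0 in receptor-positive cells, and Cd8a was at 0 and 1.37 CPM, while Cd8b1 was at 89.7 and 39.8 CPM against 22.7 and 32.5 CPM in receptor-negative cells. Plasma cell genes summed to 8.03 and 6.86 CPM against 7.93 and 11.1 CPM. With a stricter list, 0 receptor-positive cells and 2 receptor-negative cells of the Treg-depleted library, and 0 of either in the library with both treatments, held markers of another cell type.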

How the data were processed

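Single-cell RNA was measured in 5 libraries, 1 per group. The deposited tables hold raw UMI counts per gene and cell, 11924 genes in each, which the authors made with bcl2fastq 2.20, Cell Ranger 6.0.0, R 4.1.1, Seurat 4.0.4 and the mm10 genome, per the submitters' processing notes; further filters are not given in the sources used here. The Treg-depleted library held 16151098 UMIs (median 5208.5 per cell), and that with both treatments 16865422 (median 2468). Totals refer to the listed genes, among them 4 of 12 CD4 T cell markers and 344 of 354 genes of the lists.

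Cells were thinned at random (seed 1) to 3000 UMIs, summed per library and kind of cell, and tested with edgeR 4.0.16 in R 4.3.3 (glmQLFit, total-UMI scaling, library as block, mean of at least 25 CPM over the Foxp3-positive sums and at least 30 UMIs), with DESeq2 1.42.0 as an alternative. Receptor variable genes and Foxp3 were kept out of the calls. The library block pairs the groups because they come from the same library; the labels give no replicate numbers. The sums are not replicate mice, and p-values measure only the spread between these libraries. In simulated data, 98% of 50 genes raised 2-fold and 58% of 50 raised 1.5-fold were recovered. Of genes lowered to 0.5-fold and 0.667-fold, 92.7% of 41 and 40.5% of 42 were recovered. There were 2 false calls, and 0 calls were made without a difference. The simulated counts had less spread than the real fit (common dispersion 0.0148) and no difference between libraries. These shares may therefore not hold for the real sums. Ratios carry exact conditional binomial 95% intervals and shares exact binomial ones. Genes of other cell types (at least 3 of 14 strict markers, chosen after values were seen) gave the background of shares. Sequences and coordinates came from GENCODE M21 (GRCm38). Tables and figures were made with pandas 2.3.3, scipy 1.17.1, matplotlib 3.10.9 and numpy 2.4.6 under Python 3.11.15.

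The members, gene lists and the rule for naming genes were chosen with earlier results of these data known. Genes were named if among the 12 highest or 12 lowest, called ones first, ranked by whichever library's log2 ratio was nearer to 0, if among up to 4 members per list, or if in a fixed set of T cell genes. Gm12840, Trdc, Tcrg-C genes, Socs2, Prdm1, Mt2, Gzma and Cd8b1 fall outside that rule and were named after their values were seen. A few genes that the rule or lists hold are not reported here. Alternatives changed thinning, membership, cell and gene filters, scaling, test and block.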

Additional observations from a re-analysis of the deposited data

How the results depend on the processing

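Of the 7 genes called higher in receptor-positive than in receptor-negative Foxp3 cells, Gm12840 kept its call in 19 of 20 alternatives, Tcf7 in 18 of 19, Evl in 17 of 18, Nsg2 in 16 of 17, Sox4 in 14 of 16, Trdc in 14 of 19 and Asap1 in 13 of 19, and Mt1, the gene called lower, in 16 of 20. No called gene changed direction in any of them, and in either library alone, which gives a value and no test, all 8 kept theirs. Without the library with both treatments Sox4 was at 2.31 on the log2 scale. The largest adjusted p of Tcf7, Sox4, Nsg2, Evl, Asap1, Trdc, Gm12840 and Mt1 over these alternatives were 0.381, 1.00, 0.364, 0.0705, 1.00, 0.993, 0.559 and 0.548.

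Numbers of calls moved more. Against receptor-negative cells, 7 genes higher and 1 lower became 4 and 0 without thinning, 9 and 2 with membership taken after thinning, 5 and 2 at 1000 UMIs, 3 and 1 from 2 Foxp3 UMIs, 2 and 0 from 4 (chosen after seeing the data), 8 and 3 with Trav14d-3-dv8 alone, 18 and 4 without G2M-positive cells, 1 and 0 at a mean of 100 CPM, 14 and 1 without a CPM minimum, 75 and 55 with 4 sums only, and 22 and 3 without cells that hold 2 markers of another type. That last choice left 61 and 61 receptor-positive and 148 and 222 receptor-negative cells, since most of the others held B cell list genes. Without the library block that pairs the groups, 2 were higher and 0 lower, with 155 genes at an unadjusted p under 0.05 (218 without thinning, 168 from 4 Foxp3 UMIs and 86 at 100 CPM, the other edgeR choices with a count of 0). Against Foxp3-zero receptor-positive cells, 616 higher and 702 lower became 425 and 419 at 1000 UMIs, 397 and 397 with membership after thinning, 382 and 374 with Trav14d-3-dv8 alone, 259 and 154 without G2M-positive cells, 374 and 289 at 100 CPM, 743 and 1139 without a CPM minimum, 461 and 267 with DESeq2, 434 and 430 without the block, and 286 and 207 without cells that hold 2 markers of another type. The cause was not tested, except that the stricter filters and choices tested fewer genes or cells. Counts of calls with a library left out could not be fitted, as no residual would remain. Shares also moved: without thinning, another Trav gene was found in 20.5% and 10.3% of receptor-positive cells, against 10.4% and 6.17% after it, and in 9.97% and 17.7% of receptor-negative cells, against 4.98% and 9.41%. Another Trbv gene was found in 6.46% and 2.88% of receptor-negative cells without thinning, against 3.17% and 1.33% after it. From 3 G2M genes, 67.5% and 75.3% of receptor-positive and 62.7% and 77.1% of receptor-negative cells were positive. After thinning 12 and 23 cells held both receptor genes, in place of 64 and 61.

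The main limits are 1 library per treatment, no replicate mice, incomplete detection of the receptor, and droplets with more than 1 cell, which were not called.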
